A study of Homo sapiens with 4 samples.

Results

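The cryptochromes and the circadian clock genes were followed in human cells that had been placed in a magnetic field. The set held 10 genes (CRY1, CRY2, PER1, PER2, PER3, CLOCK, NR1D1, NR1D2, DBP and TEF), picked by name out of the 26348 genes of the authors' expression table, and all 10 were found and tested. The cells were A549, an established line grown from a lung tumour of the non-small cell type, and 293T, an established epithelial line of kidney origin. Exposed A549 and exposed 293T cells had been in the field for 2 h, control A549 and control 293T cells had received no field, and each of these 4 groups was represented by 3 RNA sequencing libraries of whole cultures. Both are long-cultured lines and no genetic change or other agent is named for any group. The strength of the field, the hour of harvest and whether the clocks of the cells had been synchronised are not given in the sources used here. No label says whether libraries within a group were grown as independent cultures, so the p-values here reflect library-to-library spread that could be purely technical. In such bulk RNA, fewer cells expressing a gene and less RNA per cell cannot be told apart.

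The circadian clock is a feedback loop of transcription. CLOCK and its partner BMAL1 (ARNTL) bind E-box sequences and activate the PER and CRY genes, whose proteins return to the nucleus and repress them. A second arm runs through NR1D1 and NR1D2, the REV-ERB repressors, and an output arm through DBP and TEF, which bind D-box sequences. Cryptochromes are flavoproteins related to the light-driven DNA repair enzymes called photolyases, and in Drosophila and in migratory birds they have been proposed to take part in sensing magnetic fields.

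Levels are given in FPKM, fragments scaled to gene length and to the total of the library, and may therefore be compared between genes. Whole fragment counts recovered from these values summed to between 37171616 and 38883963 per library, and a clock gene had between 220 and 3651 counts in a library. Counting error alone at the lowest of these counts is 6.74%. The labels fit the markers of the lines, since 15 epithelial and lung carcinoma markers summed to between 7322 and 7868 FPKM in A549 libraries and to between 89.3 and 99.1 FPKM in 293T libraries. The lung lineage factor NKX2-1 was at or below 0.0111 FPKM in every A549 library and the surfactant gene SFTPC at or below 0.0275 FPKM, so A549 carried the keratin and detoxification markers on that list without these defining genes of the lung epithelium. In 293T libraries NKX2-1 was higher than in A549, at 0.725 to 1.00 FPKM. The sum of 13 neural-type and kidney markers of the 293T list was 41.5 to 43.2 FPKM in A549 libraries and 246 to 262 FPKM in 293T libraries. PAX8 and SALL4 on that list went the other way. PAX8 was at 0.144 to 0.254 FPKM in A549 libraries and at or below 0.0129 FPKM in 293T libraries. SALL4 was at 0.547 to 0.594 FPKM in A549 libraries and 0.351 to 0.447 FPKM in 293T libraries. The kidney marker PAX2 was also low in 293T libraries, at 0.35 to 0.65 FPKM. Of the epithelial genes there, CDH1 was at 0.660 to 0.954 FPKM and EPCAM at 0.507 to 0.963 FPKM. The keratins KRT8 and KRT18 were higher in 293T libraries, at 26.6 to 32.2 FPKM and 51.2 to 54.5 FPKM. Markers of lymphocytes, macrophages, endothelium and fibroblasts (13 in the table) summed to at most 26.9 FPKM, most of it the lysosomal gene CD68 (20.9 to 23.9 FPKM in A549), with the leukocyte gene PTPRC at or below 0.00401 FPKM in every library.

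In exposed A549 cells 6 of the 10 clock genes fell, namely PER1, PER3, CRY2, NR1D1, NR1D2 and TEF. The other 4 did not pass the test, with CRY1 and CLOCK above 0 and PER2 and DBP below it. In mean FPKM CRY2 fell by 17.3% and PER3 fell by 44.1%, which bound the 6. Across all 13811 genes tested, 26.9% were lower and 13.3% higher in exposed A549 cells at the same threshold (limma, Benjamini-Hochberg adjusted p under 0.05), beside 6 of 10 members lower and 0 higher. The balance of this background depended on the scaling, since 2695 genes were higher and 2525 lower with median centring (members 1 higher and 5 lower), and 2400 higher and 2786 lower with quantile normalization (members 0 and 5), in place of 1837 higher and 3711 lower. The median log2 fold change of the 10 was -0.23, beside -0.04 for all genes tested. In 293T cells the direction was mixed: PER2, DBP and CLOCK rose, by between 20.2% (CLOCK) and 31.3% (DBP), and PER1 fell by 11.8%. Among all genes tested in 293T, 13.7% were called higher and 24.2% lower (1897 and 3346 genes, against 2403 and 2620 with quantile normalization), and the median of the 10 was 0.10, beside -0.03 for all genes. Fold changes are on the log2(FPKM + 1) scale, which understates the change of genes near 1 FPKM such as PER3.

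**Figure D1:**
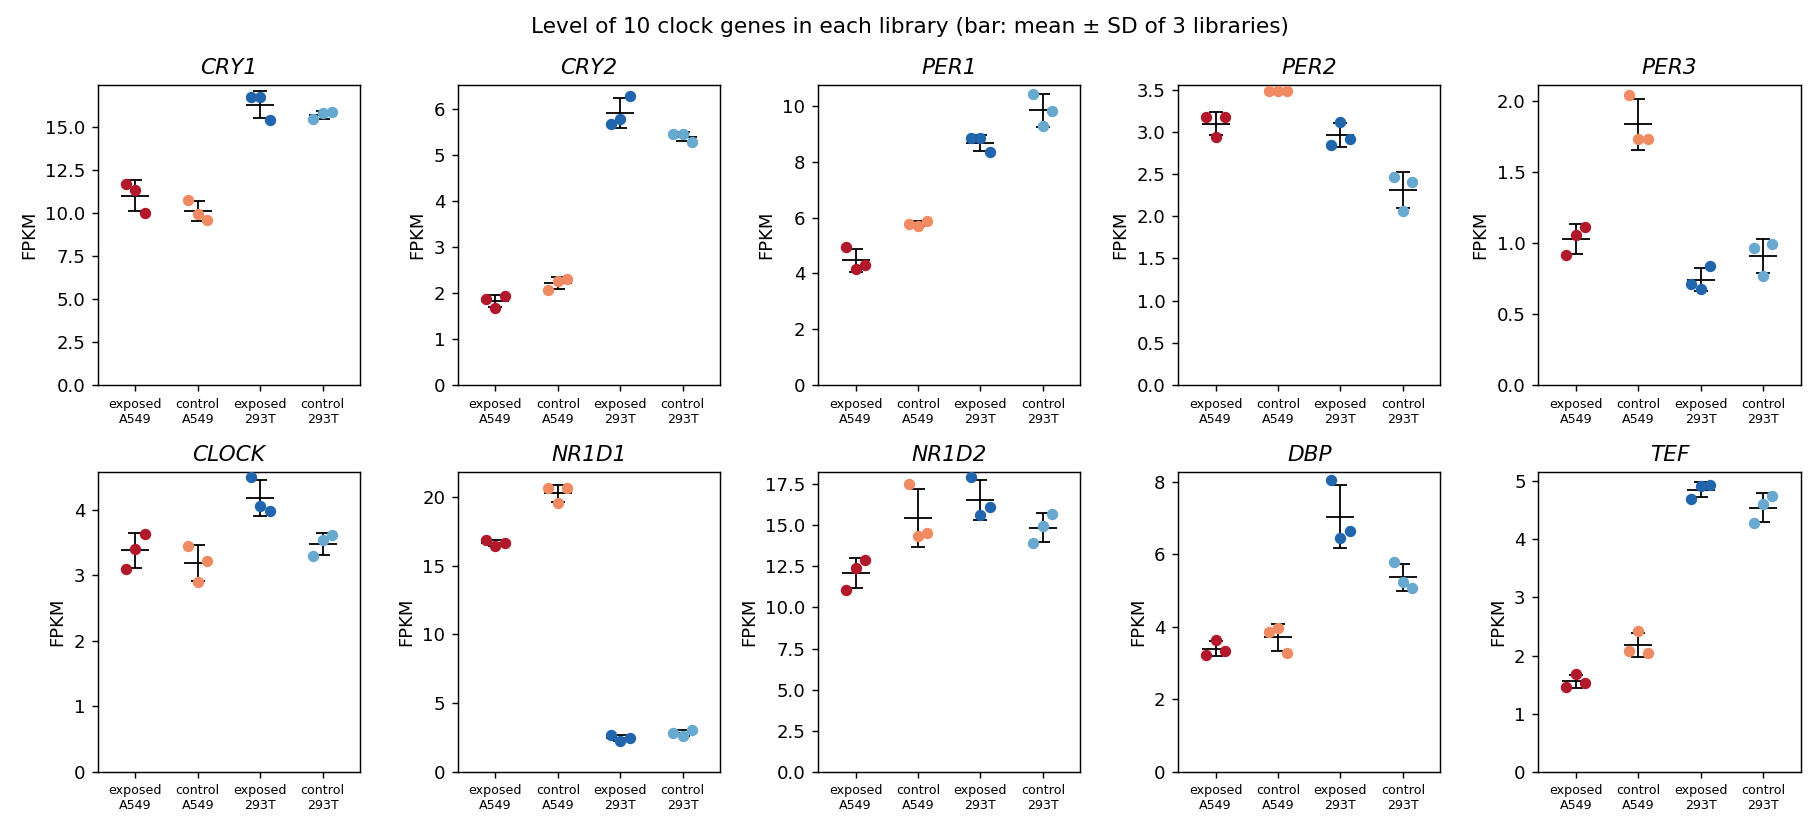
FPKM of each of the 10 clock genes in the 12 libraries, with exposed left of control in each line; points are libraries and bars the mean ± SD of 3. NR1D1 stands at 16.4 to 20.7 FPKM in A549 against 2.24 to 3.04 FPKM in 293T, and PER3 in exposed A549 libraries lies below every A549 control.

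The cryptochromes CRY1 and CRY2 are the main repressors of the CLOCK and BMAL1 complex. CRY1 lies on chromosome 12 (106991364 to 107093549, GRCh38.p14) and CRY2 on chromosome 11 (45847118 to 45883244). CRY1 was at 11.6, 11.3 and 9.98 FPKM in exposed A549 libraries, against 10.7, 9.94 and 9.59 FPKM in A549 controls. The ranges overlapped and the log2 fold change of 0.11 did not pass the test (95% interval -0.01 to 0.23, limma adjusted p = 0.142). It did pass, toward higher levels, without replicate 3 of the exposed A549 group (0.17, adjusted p = 0.0198) and after centring each library on its median (0.17, adjusted p = 0.0441). In 293T CRY1 was at 16.7, 16.7 and 15.4 FPKM in exposed libraries, against 15.4, 15.8 and 15.8 FPKM in controls, a log2 fold change of 0.05 (95% interval -0.07 to 0.17, adjusted p = 0.535).

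CRY2 was called lower in exposed A549 cells. It was at 1.87, 1.67 and 1.93 FPKM in exposed A549 libraries, against 2.06, 2.26 and 2.30 FPKM in controls, so every exposed library lay below every control. The log2 fold change was -0.18 (SE 0.05, limma adjusted p = 0.0139), and the call was lost without replicate 2 of the exposed group (adjusted p = 0.0599), without replicate 3 of the A549 controls (adjusted p = 0.0559), with median centring (adjusted p = 0.0724) and with quantile normalization (adjusted p = 0.165). In 293T every exposed library lay above every control, with 5.67, 5.78 and 6.28 FPKM in exposed libraries against 5.45, 5.44 and 5.28 FPKM in controls, but the log2 fold change of 0.11 did not pass (95% interval -0.000922 to 0.224, adjusted p = 0.110). CRY2 responded differently in the lines (A549 minus 293T -0.30, SE 0.07, limma adjusted p = 0.0212). The call was lost without replicate 3 of the 293T controls (adjusted p = 0.0532), without replicate 3 of the A549 controls (0.0550) and with quantile normalization (0.0605). Within a library, CRY1 exceeded CRY2 by a ratio of 6.06 ± 0.822 in exposed A549 cells and 4.59 ± 0.548 in control A549 cells (SD, n = 3 each), and by 2.77 ± 0.273 in exposed 293T cells and 2.91 ± 0.0835 in control 293T cells. The ranges of this ratio overlapped between exposed and control libraries in A549, where they were 5.17 to 6.79 and 4.16 to 5.21, and also in 293T.

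The period genes encode the partners with which cryptochromes enter the nucleus, and PER1 was the one member called in both lines. In A549 it was at 4.93, 4.17 and 4.31 FPKM in exposed libraries, against 5.77, 5.70 and 5.87 FPKM in controls, with no overlap. The log2 fold change was -0.31 (SE 0.06, limma adjusted p = 0.000875), and the call held in all 24 alternative fits (adjusted p from 0.000376 to 0.0112). In 293T PER1 was at 8.86, 8.84 and 8.35 FPKM in exposed libraries, against 10.4, 9.28 and 9.81 FPKM in controls, again with no overlap. That smaller fall (log2 fold change -0.16, SE 0.06, adjusted p = 0.0373) was lost without replicate 1, 2 or 3 of the exposed group (adjusted p = 0.0608, 0.0668 and 0.103) and without replicate 1 or 3 of the controls (0.149 and 0.0801), as well as in 5 planned fits with other settings. The responses of the 2 lines were not shown to differ for PER1 (difference -0.15, 95% interval -0.32 to 0.02, adjusted p = 0.244).

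PER1 is shown by the sequence before its start because it was called in both lines. The 250 bases before the RefSeq start lie on the minus strand at chr17:8152405-8152654 (GRCh38.p14), printed 5′ to 3′, with an E-box (CACGTG) and an AGGTCA site read on the opposite strand in capitals.
PER1: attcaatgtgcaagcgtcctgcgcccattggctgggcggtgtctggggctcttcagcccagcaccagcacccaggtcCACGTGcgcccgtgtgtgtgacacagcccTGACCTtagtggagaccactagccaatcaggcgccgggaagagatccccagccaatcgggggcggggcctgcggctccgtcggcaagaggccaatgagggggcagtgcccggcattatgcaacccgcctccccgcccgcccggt

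PER2 differed in direction between the lines. In 293T it was at 2.85, 3.12 and 2.91 FPKM in exposed libraries, against 2.46, 2.06 and 2.41 FPKM in controls, so the groups did not overlap. It rose there by 28.2% (log2 fold change 0.26, SE 0.05, limma adjusted p = 0.00245), a call that held in all 24 alternatives. In A549 PER2 was at 3.18, 2.94 and 3.17 FPKM in exposed libraries, each below the controls at 3.48, 3.48 and 3.48 FPKM. These controls held 916, 913 and 914 counts, a spread smaller than counting error alone would give. The log2 fold change of -0.13 did not pass (95% interval -0.24 to -0.02, adjusted p = 0.0676), though it did without replicate 2 of the 293T controls, which enters through the shared spread (adjusted p = 0.0391), and when the sum of each library was set without mitochondrial genes (adjusted p = 0.0473). The difference between the responses was -0.39 (SE 0.07, adjusted p = 0.00625) and was called in all 23 alternatives that could be fitted.

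PER3 had the largest fall of the 10 genes in A549 by ratio of mean FPKM and by log2 fold change. It was at 0.914, 1.06 and 1.12 FPKM in exposed A549 libraries, against 2.05, 1.74 and 1.73 FPKM in controls, so the highest exposed library was well below the lowest control. Exposed cells held 0.559 times the control level, and the log2 fold change was -0.48 (SE 0.07, limma adjusted p = 0.000132), or -0.84 at the largest among the alternatives, all of which kept the call. In 293T PER3 was at 0.714, 0.679 and 0.837 FPKM in exposed libraries and 0.968, 0.772 and 0.996 FPKM in controls, and the log2 fold change of -0.13 did not pass (95% interval -0.27 to 0.01, adjusted p = 0.131). The fall of PER3 in A549 was larger than its change in 293T (difference -0.35, SE 0.09, adjusted p = 0.0276). This call was lost without replicate 1 of exposed A549 (adjusted p = 0.0648), replicate 1 of the A549 controls (0.0592) or replicate 2 of the 293T controls (0.0666), and in 4 fits with other settings. Within libraries, PER1 stood at 1.44 ± 0.0980 times PER2 in exposed A549 cells and 1.66 ± 0.0238 times in control A549 cells (SD, n = 3 each), and at 2.94 ± 0.150 times in exposed 293T cells and 4.27 ± 0.212 times in control 293T cells. The ranges of this ratio did not overlap between exposed and control libraries in either line.

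**Figure D2:**
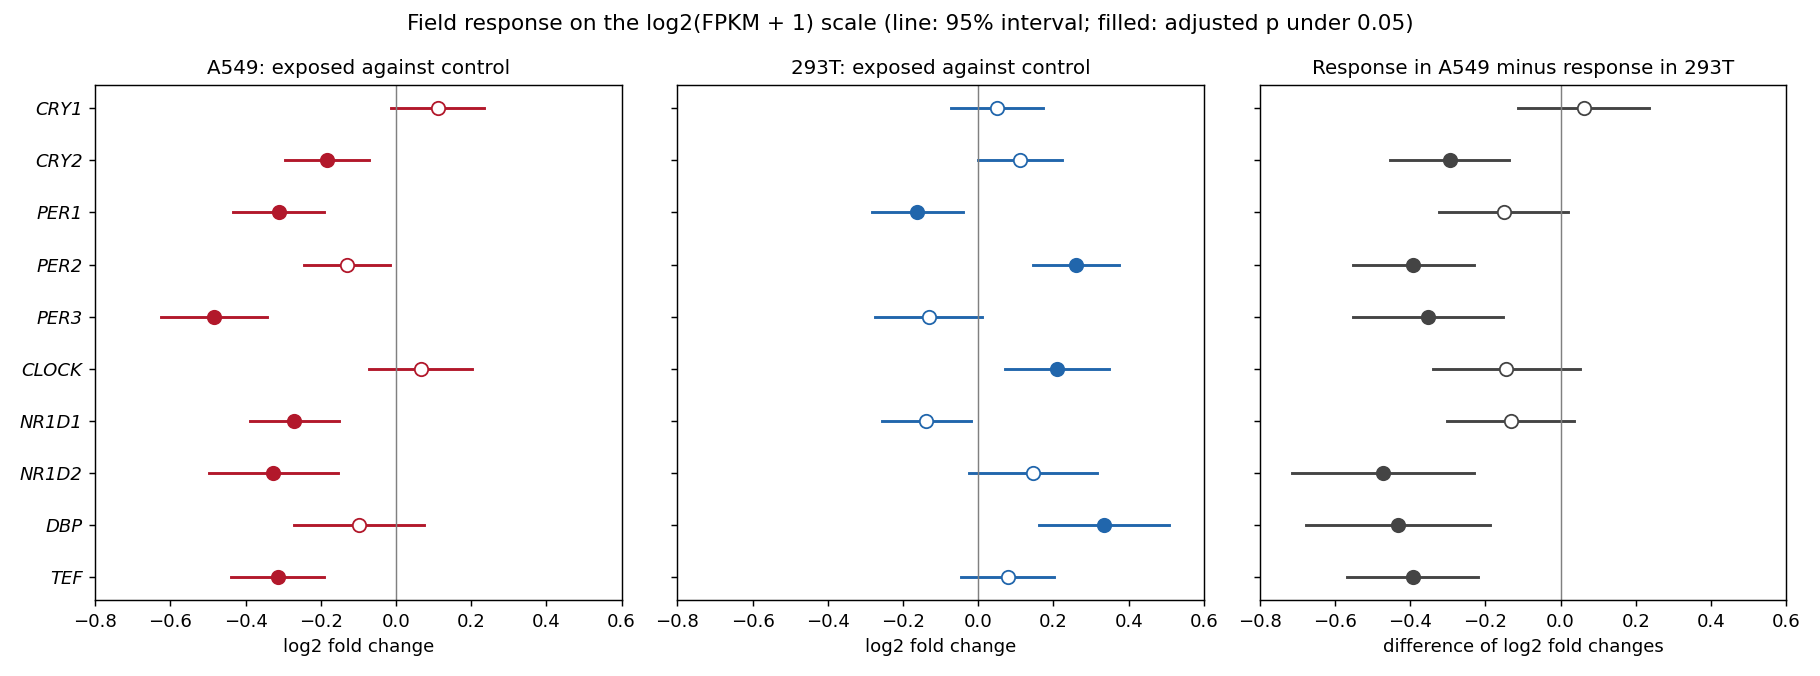
Log2 fold change of each clock gene after exposure in A549 (left) and 293T (middle), and the difference of these responses (right), on the log2(FPKM + 1) scale; lines are 95% intervals and filled points have an adjusted p under 0.05. In A549 the 6 filled points lie below 0, in 293T 3 of 4 lie above it, and all 6 filled differences are negative.

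CLOCK, the DNA-binding activator of the loop and also a histone acetyltransferase, did not change detectably in A549, where exposed libraries were at 3.10, 3.41 and 3.63 FPKM and controls at 3.44, 2.90 and 3.22 FPKM (log2 fold change 0.07, 95% interval -0.07 to 0.20, limma adjusted p = 0.457). In 293T it was at 4.50, 4.05 and 3.99 FPKM in exposed libraries, all above the controls at 3.29, 3.54 and 3.61 FPKM. This rise (log2 fold change 0.21, SE 0.06, adjusted p = 0.0211) was lost without replicate 1 of the exposed group (adjusted p = 0.0883) or replicate 1 of the controls (adjusted p = 0.0822). The responses were not shown to differ (difference -0.14, 95% interval -0.34 to 0.05, adjusted p = 0.333). The end of CLOCK lies within the neighbouring gene TMEM165, which was at 13.9 ± 0.649 FPKM in exposed and 18.1 ± 1.19 FPKM in control A549 cells, and at 19.0 ± 0.216 FPKM in exposed and 19.2 ± 0.782 FPKM in control 293T cells (SD, n = 3 each). Whether counting used strand is not stated, so reads of CLOCK and TMEM165 in the shared stretch cannot be told apart. The overlapping neighbours of members and ARNTL were named after their values had been seen. ARNTL, which encodes the partner BMAL1, was at 5.66, 4.59 and 5.29 FPKM in exposed A549 libraries, against 4.32, 4.09 and 4.15 FPKM in controls, and rose (log2 fold change 0.25, SE 0.06, adjusted p = 0.00799). In 293T ARNTL was at 1.71 ± 0.161 FPKM in exposed and 1.42 ± 0.0463 FPKM in control cells (SD, n = 3 each) and did not pass (log2 fold change 0.16, adjusted p = 0.0669).

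NR1D1 and NR1D2 encode nuclear receptors that bind haem and repress ARNTL. NR1D1 was at 16.9, 16.4 and 16.6 FPKM in exposed A549 libraries, against 20.7, 19.6 and 20.6 FPKM in controls, with a narrow spread in both groups and no overlap. It fell by 18.0% (log2 fold change -0.27, SE 0.05, limma adjusted p = 0.00197), and the call held in all 24 alternatives. In 293T it was at 2.68, 2.24 and 2.47 FPKM in exposed and 2.81, 2.58 and 3.04 FPKM in control libraries, and the log2 fold change of -0.14 did not pass (95% interval -0.26 to -0.02, adjusted p = 0.0651). It was called there without replicate 1 of the exposed group (adjusted p = 0.0295), without replicate 2 of the controls (0.0317) and with the replicate number as a block (0.0347). NR1D1 overlaps the neighbouring gene THRA at one end, with the same limit on telling their reads apart. THRA was also lower, at 4.54 ± 0.273 FPKM in exposed and 6.51 ± 0.160 FPKM in control A549 cells, and at 6.26 ± 0.215 FPKM in exposed and 7.52 ± 0.345 FPKM in control 293T cells (SD, n = 3 each).

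NR1D2, the paralog, was at 11.1, 12.4 and 12.9 FPKM in exposed A549 libraries, each below the controls at 17.5, 14.3 and 14.5 FPKM. It fell by 21.7% (log2 fold change -0.33, SE 0.08, limma adjusted p = 0.00603), and no alternative ended the call. In 293T the ranges overlapped, with 17.9, 15.6 and 16.1 FPKM in exposed and 13.9, 14.96 and 15.7 FPKM in control libraries, and the log2 fold change was 0.15 (95% interval -0.03 to 0.32, adjusted p = 0.168). The difference between the lines was -0.47 (SE 0.11, adjusted p = 0.0176), and it was called in all 23 alternatives (adjusted p from 0.00923 to 0.0499). On the log2(FPKM + 1) scale this was the largest difference in size among the 10 genes. With a pseudocount of 0.1 it was -0.501, smaller in size than those of TEF (-0.554), PER3 (-0.521), PER2 (-0.513) and DBP (-0.504). With limma-voom on recovered counts it was -0.503, again smaller in size than for these genes (-0.582, -0.549, -0.531 and -0.511). NKIRAS1, which overlaps NR1D2 at its start, rose in both lines (limma adjusted p = 0.00104 in A549 and 0.00144 in 293T). It was at 3.20 ± 0.136 FPKM in exposed and 2.40 ± 0.191 FPKM in control A549 cells, and at 3.04 ± 0.138 FPKM in exposed and 2.28 ± 0.174 FPKM in control 293T cells (SD, n = 3 each), and its reads in the shared stretch cannot be told apart from those of NR1D2.

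DBP and TEF are the output factors of the PAR bZIP family. DBP was at 8.03, 6.43 and 6.64 FPKM in exposed 293T libraries, against 5.77, 5.23 and 5.07 FPKM in controls, and rose by 31.3% (log2 fold change 0.33, SE 0.08, limma adjusted p = 0.00627), a call kept in all 24 alternatives. In A549 its exposed libraries, at 3.23, 3.62 and 3.32 FPKM, overlapped the controls at 3.86, 3.97 and 3.29 FPKM (log2 fold change -0.10, 95% interval -0.27 to 0.07, adjusted p = 0.366). The difference of -0.43 (SE 0.11, adjusted p = 0.0271) was no longer called without replicate 1 of exposed A549 (adjusted p = 0.0626), replicate 1 or 2 of the A549 controls (0.0570 and 0.0598) or replicate 2 or 3 of the 293T controls (0.0637 and 0.0660), and in 2 fits with other settings. DBP shares its end with SPHK2, which was at 6.21 ± 0.510 FPKM in exposed and 4.31 ± 0.351 FPKM in control A549 cells, and at 3.58 ± 0.287 FPKM in exposed and 3.97 ± 0.321 FPKM in control 293T cells (SD, n = 3 each).

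TEF was at 1.45, 1.68 and 1.53 FPKM in exposed A549 libraries, against 2.07, 2.42 and 2.05 FPKM in controls, with no overlap. It fell by 28.7% (log2 fold change -0.31, SE 0.06, limma adjusted p = 0.000933), and every alternative kept the call. In 293T TEF was at 4.70, 4.92 and 4.94 FPKM in exposed and 4.28, 4.61 and 4.75 FPKM in control libraries (log2 fold change 0.08, 95% interval -0.04 to 0.20, adjusted p = 0.304). The difference was -0.39 (SE 0.08, adjusted p = 0.00865) and was called in all 23 alternatives. DBP stood at 2.18 ± 0.0387 times TEF in exposed A549 cells and 1.70 ± 0.139 times in control A549 cells (SD, n = 3 each), and these ranges did not overlap. In 293T the ratio was 1.45 ± 0.222 in exposed and 1.18 ± 0.148 in control cells, with overlapping ranges.

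**Figure D3:**
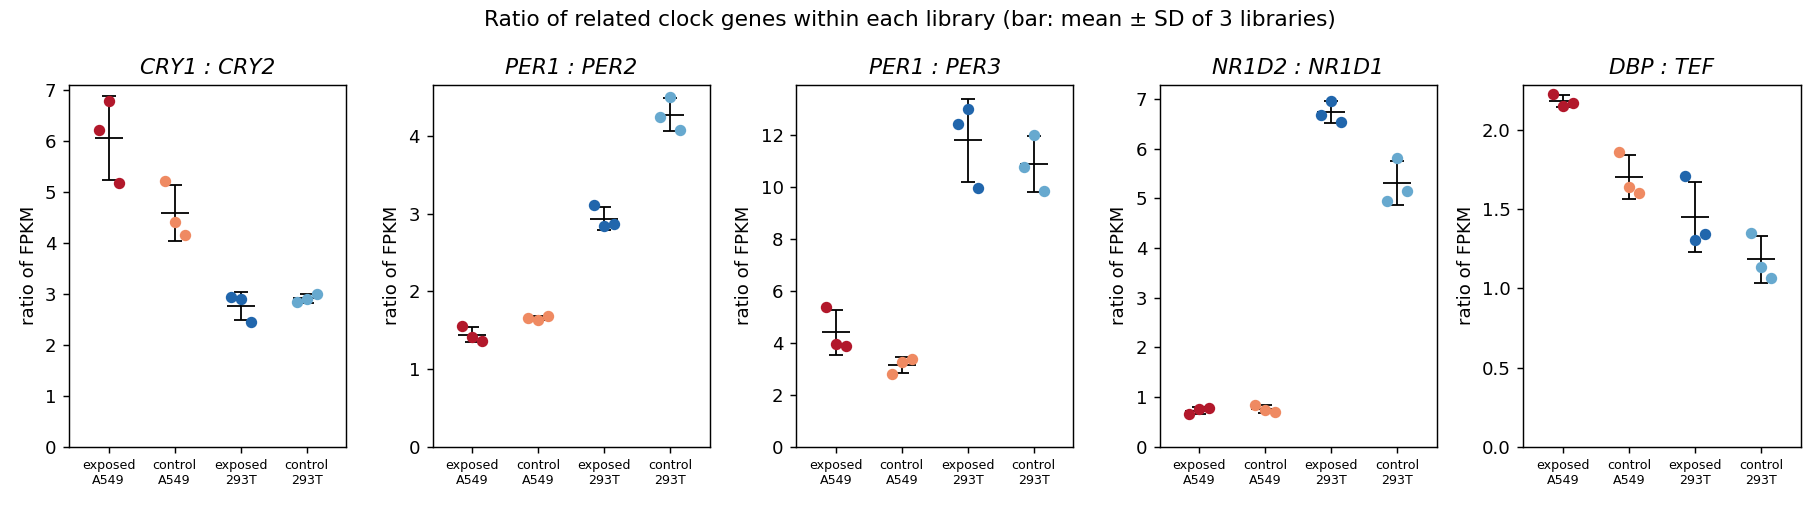
Ratio of FPKM between related clock genes within each library, exposed left of control in each line; points are libraries and bars the mean ± SD of 3. PER1 to PER2 is lower in the exposed libraries of both lines, and NR1D2 to NR1D1 is 6.73 ± 0.221 in exposed and 5.30 ± 0.447 in control 293T cells.

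Taking the interaction over all 10 genes, the response in A549 lay below that in 293T for CRY2, PER2, PER3, NR1D2, DBP and TEF, and above it for none of the others by this test. Over all genes tested 7.03% had a lower and 5.51% a higher response in A549 by this test. The median difference of the 10 was -0.32, beside -0.01 for all genes. The comparisons use different cells and share no controls, but the spread between libraries is estimated over all 12. Without the exposed libraries numbered 3 of both lines, an alternative chosen after seeing the data, 6 members were lower and 1 higher (CRY1, adjusted p = 0.0116) in A549, and 0 were lower and 3 higher in 293T.

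Motif letters were searched on both strands in the RefSeq promoter windows of the 10 genes, from 250 bases before to 50 after each start, which gave 15 windows because 5 genes have 2 starts in the table. An E-box (CACGTG) was present in 4 of the 15 windows, in PER1, NR1D2 and TEF, beside 7.26% of all 35116 windows and 9.33% of the 16181 windows of genes tested here. A D-box (TTATGTAA or TTACGTAA) was present in 3 windows, in PER2, PER3 and NR1D2, beside 1.01% of all windows and 0.643% of those of tested genes. The core of the cAMP response element (TGACG) was found in 7 windows, in CRY1, CRY2, PER2, CLOCK and NR1D2 (24.6% of all windows, 31.6% of those of tested genes), and the site of ROR and REV-ERB receptors (AGGTCA) in 3, in CRY2 and PER1 (13.8% and 10.2%). The full cAMP response element (TGACGTCA, 1.85% and 2.85%) and the heat shock letters GAANNTTC (6.77% and 4.89%) were in none of the 15. TGACG lies inside TGACGTCA, so these counts are not independent. The D-box and E-box matches outside PER1 are shown with 10 bases to each side and the motif in capitals, since PER2, PER3, NR1D2 and TEF were called in at least 1 comparison. They are read along the gene's own strand from the first or the second RefSeq start. The D-box of NR1D2 lies on the opposite strand, so its capitals TTACATAA are TTATGTAA read on that strand.
PER2 D-box, first start: ccgctgcggcTTACGTAAccgccgccgg
PER3 D-box, first start: agcccgcgcgTTATGTAAcgcgccccgg
NR1D2 D-box, second start: tgacgcggcaTTACATAAtgggcgctga
NR1D2 E-box, second start: cgggcggggaCACGTGaggccgctcg
NR1D2 E-box, second start: gccgcagggaCACGTGggggcggggg
TEF E-box, first start: gcgacagctcCACGTGctgcagctgg
TEF E-box, second start: cctggccccgCACGTGtctatcttat
A match gives only the letters in the window and was not tested as a binding site.

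The order of the clock genes differed between the lines before any exposure. In control A549 cells NR1D1 was highest at 20.3 ± 0.626 FPKM, then NR1D2 (15.5 ± 1.77), CRY1 (10.1 ± 0.585), PER1 (5.78 ± 0.0831), DBP (3.71 ± 0.366), PER2 (3.48 ± 0.000876), CLOCK (3.18 ± 0.274), CRY2 (2.21 ± 0.130), TEF (2.18 ± 0.205) and PER3 (1.84 ± 0.181; mean FPKM ± SD, n = 3). DBP and PER2, and CRY2 and TEF, had overlapping ranges, while the other neighbours in that order were separate. In exposed A549 cells NR1D1 was still first and PER3 last, and NR1D2 then overlapped CRY1, DBP overlapped CLOCK, CLOCK overlapped PER2, and CRY2 overlapped TEF. In control 293T cells CRY1 (15.7 ± 0.216 FPKM) and NR1D2 (14.9 ± 0.881 FPKM) overlapped at the top, followed by PER1 (9.84 ± 0.580 FPKM), and CRY2 (5.39 ± 0.0921 FPKM) overlapped DBP (5.36 ± 0.366 FPKM). Below them stood TEF (4.55 ± 0.246 FPKM), CLOCK (3.48 ± 0.168 FPKM), NR1D1 (2.81 ± 0.233 FPKM), PER2 (2.31 ± 0.216 FPKM) and PER3 (0.912 ± 0.122 FPKM), each separate from the next. In exposed 293T cells NR1D2 and CRY1 again overlapped at the top, and PER2 had moved above NR1D1.

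Between the unexposed lines, 8 of the 10 genes differed, 3 higher and 5 lower in control A549 than in control 293T, where 32.4% of all genes tested were higher and 55.9% lower. The median log2 fold change of the 10 was -0.267, close to -0.254 for all genes tested. NR1D1 was 7.21 times as high in control A549 as in control 293T (log2 fold change 2.48, SE 0.05, limma adjusted p = 1.06e-13). PER3 was 2.02 times as high (log2 fold change 0.57, adjusted p = 2.28e-06) and PER2 1.51 times as high (0.44, adjusted p = 3.62e-06). CRY2 was lower, at 0.409 times the control 293T level (log2 fold change -0.995, SE 0.05, adjusted p = 6.66e-10), as were TEF (0.479 times), PER1 (0.587 times), CRY1 (0.643 times) and DBP (0.692 times). CLOCK (log2 fold change -0.10, 95% interval -0.24 to 0.04, adjusted p = 0.156) and NR1D2 (0.05, 95% interval -0.12 to 0.22, adjusted p = 0.557) did not pass. Line and any handling that differed with it cannot be told apart here.

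**Figure D4:**
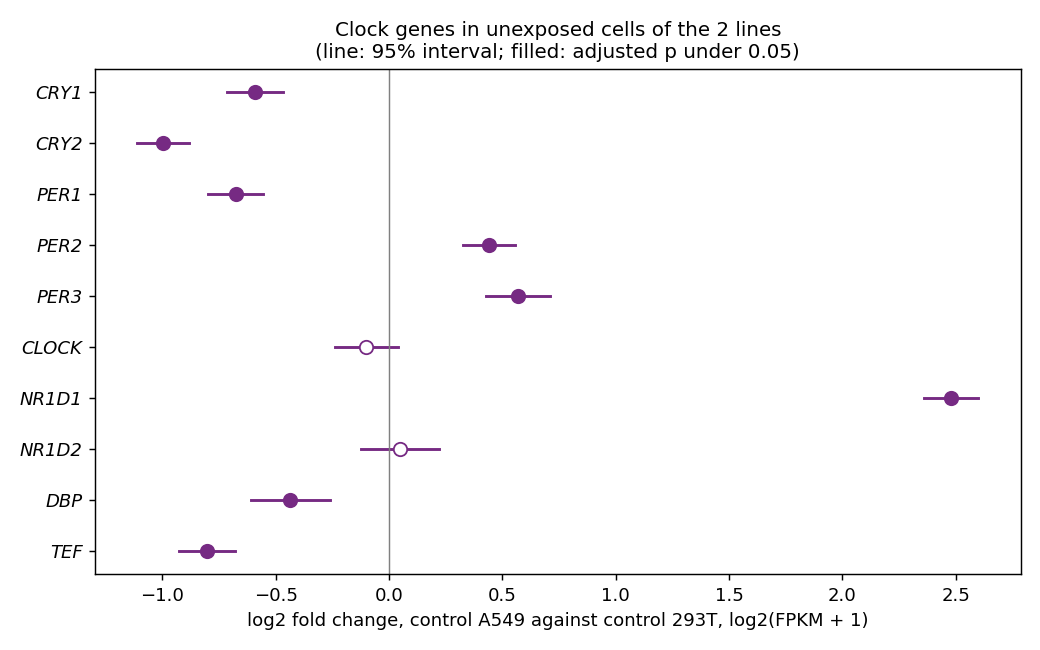
Log2 fold change of the 10 clock genes in control A549 against control 293T on the log2(FPKM + 1) scale; lines are 95% intervals and filled points have an adjusted p under 0.05. NR1D1 stands alone at 2.48, while the other 9 lie between -0.995 and 0.57.

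Other genes of the loop were read from lists of related genes. As the background for every list below, 13.3% of all genes tested were higher and 26.9% lower in A549. In 293T these shares were 13.7% and 24.2%, and the all-gene medians were -0.0366 (A549) and -0.0311 (293T). Of 11 tested clock transcription factors and repressors outside the 10 members, 2 rose and 3 fell in exposed A549 cells and 1 rose and 2 fell in exposed 293T cells, with list medians of 0.00138 and -0.0272. HLF, the third PAR bZIP factor, fell in A549 as TEF did, at 0.333 ± 0.0596 FPKM in exposed and 0.773 ± 0.0827 FPKM in control cells (SD, n = 3 each; log2 fold change -0.41, SE 0.05, limma adjusted p = 0.000107). BHLHE40, the E-box repressor DEC1, rose in A549 (66.0 ± 6.57 FPKM in exposed and 49.6 ± 0.412 FPKM in control cells, log2 fold change 0.40, adjusted p = 0.000325). NFIL3, which represses D-box genes and so opposes DBP and TEF, rose in 293T (6.34 ± 0.249 FPKM in exposed and 4.03 ± 0.448 FPKM in control cells, log2 fold change 0.55, adjusted p = 0.000392). TIPIN, the partner of TIMELESS, fell in both lines (log2 fold change -0.46, adjusted p = 0.00406 in A549, and -0.56, adjusted p = 0.00146 in 293T), and NONO, a PER-binding protein, fell in 293T (-0.13, adjusted p = 0.00245).

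Among 24 tested kinases, phosphatases and ubiquitin ligases that act on clock proteins, 2 rose and 4 fell in A549, and 5 rose and 4 fell in 293T, with medians of -0.024 and 0.00386. CSNK1D, the kinase that marks PER proteins, fell in A549 (27.9 ± 0.790 FPKM in exposed and 32.6 ± 0.923 FPKM in control cells, log2 fold change -0.22, limma adjusted p = 0.000320). PRKAA1, a catalytic subunit of AMP-activated kinase, which phosphorylates CRY1 in mouse, fell in A549 (-0.41, adjusted p = 0.00493). DYRK1A rose in both lines (0.15, adjusted p = 0.00970 in A549, and 0.11, adjusted p = 0.0382 in 293T), and GSK3B rose in 293T (0.15, adjusted p = 0.00228). In 293T the deubiquitinase gene USP2 fell (2.89 ± 0.209 FPKM in exposed and 4.01 ± 0.217 FPKM in control cells, -0.37, adjusted p = 0.000260), as did HUWE1, a ubiquitin ligase (-0.18, adjusted p = 0.00321). The call of DYRK1A in 293T was lost when any 1 of the 6 libraries of that line was left out (adjusted p from 0.0700 to 0.0973).

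Of 14 tested genes described as clock outputs, 2 rose and 5 fell in A549 and 2 rose and 4 fell in 293T, with medians of -0.04 and 0.07. WEE1, the mitotic kinase with E-boxes in mouse, rose in both lines (0.21, limma adjusted p = 0.0288 in A549, and 0.54, adjusted p = 0.000185 in 293T), and CDKN1A, the p21 inhibitor, rose in 293T (log2 fold change 0.74, SE 0.05, adjusted p = 5.19e-06). ALAS1, the first enzyme of haem synthesis, fell in both lines (-0.20, adjusted p = 0.00848 in A549, and -0.40, adjusted p = 0.000153 in 293T), and so did SREBF1 (-0.49, adjusted p = 3.57e-05, and -0.34, adjusted p = 0.000568). E2F8 fell in A549 (-0.22, adjusted p = 0.00521), and BMP4 rose there (0.85, adjusted p = 2.51e-05). WEE1 was not called in A549 without replicate 2 of the exposed group (adjusted p = 0.121) or replicate 1 or 2 of the controls (0.0534 and 0.0972).

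PER1 is also induced through cAMP and through glucocorticoids, so those genes were counted beside it. Of 20 tested cAMP and CREB responsive genes, 4 rose and 2 fell in A549 and 5 rose and 3 fell in 293T, with medians of 0.03 and 0.04. DUSP1, a phosphatase of MAP kinases, rose in both lines (1.29, limma adjusted p = 2.91e-06 in A549, and 1.24, adjusted p = 1.28e-05 in 293T), as did CREB1 (0.25, adjusted p = 0.0146, and 0.44, adjusted p = 0.000706) and FAM53C (0.12, adjusted p = 0.0135, and 0.36, adjusted p = 3.25e-05), while PDE4B, a cAMP phosphodiesterase, fell (-0.38, adjusted p = 0.000876, and -0.21, adjusted p = 0.0262). Of 11 tested glucocorticoid receptor genes and targets, 4 rose and 3 fell in A549 and 4 rose and 1 fell in 293T, with medians of -0.00207 and 0.0351. SGK1, ERRFI1 and TSC22D3 rose in both lines, by 0.28, 0.98 and 0.15 in A549 (adjusted p = 0.000724, 6.63e-07 and 0.0133) and by 0.41, 0.31 and 0.45 in 293T (adjusted p = 0.000102, 0.00107 and 2.99e-05). FKBP5 fell in A549 (-0.25, adjusted p = 0.000229) and CEBPD rose there (0.70, adjusted p = 0.000371). In A549, without replicate 2 of the exposed group FAM53C was not called (adjusted p = 0.0546), nor CREB1 without replicate 3 of that group (0.0504) or replicate 2 of the controls (0.0628), nor TSC22D3 without replicate 1 of the exposed group (0.0591). PDE4B in 293T was not called without replicate 1 or 2 of the exposed group (0.0935 and 0.0527) or replicate 1 or 3 of the controls (0.0880 and 0.0736). The same held with no filter (0.0599) and with quantile normalization (0.0879). PDE4B was low in that line, at 0.192 ± 0.046 FPKM in exposed and 0.381 ± 0.0581 FPKM in control 293T cells (SD, n = 3 each). In the A549 libraries in which PER1 fell, 4 genes of each list rose. In the same libraries 2 genes of the cAMP list and 3 of the glucocorticoid list fell. Over all genes tested in A549, 13.3% were higher and 26.9% lower. A link between PER1 and the genes of these lists was not tested.

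Iron-sulfur assembly genes were included because ISCA1 has been named in work on cryptochrome complexes in animals. Of 7 tested, 1 rose and 1 fell in A549 and 0 rose and 3 fell in 293T, with medians of -0.02 and 0.015. ISCA2 fell in both lines (-0.25, limma adjusted p = 0.00244 in A549, and -0.18, adjusted p = 0.0167 in 293T), NFS1, a cysteine desulfurase, rose in A549 (0.21, adjusted p = 0.00445), and HSCB, a co-chaperone of iron-sulfur assembly, fell in 293T (-0.18, adjusted p = 0.0436). ISCA1 and GLRX5 did not pass in either line. In 293T 0 of the 7 were called without replicate 1 or replicate 2 of the exposed group, and 1 without replicate 2 or replicate 3 of the controls. The call of HSCB in 293T was lost when any 1 library of that line was left out (limma adjusted p from 0.0515 to 0.151). It was also lost with other settings, among them TPM (adjusted p = 0.0626) and limma-voom (0.0649). The authors' annotation column lists 33 genes of a circadian rhythm pathway, of which 9 are among the 10 described here. Of the 22 others that were tested, 4 rose and 4 fell in A549 and 4 rose and 2 fell in 293T, with list medians of -0.00031 and 0.0194, a count added after the table had been seen.

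The genes whose pattern over the 12 libraries was most like each member were found by the root mean square difference of log2(FPKM + 1), each gene first centred on its mean, among 11603 genes with a mean of at least 1 FPKM. For CRY1 they were LAMTOR4 (0.0381) and MRPS30 (0.0469), and for CRY2 INSR (0.0518) and IGF2BP1 (0.0524). For PER1 they were N4BP2L2 (0.0620) and CSNK1G2 (0.0668), for PER2 TSPAN5 (0.0714) and CSTB (0.0749), and for PER3 PLCB3 (0.0727) and NUMBL (0.0803). CLOCK was nearest to SCYL2 (0.0491) and ATP6AP2 (0.0495), NR1D1 to CMIP (0.0718) and ACTN4 (0.0729), and NR1D2 to SLC30A7 (0.0762) and TIA1 (0.0769). DBP was nearest to ZNF264 (0.0741) and SAMD1 (0.0853), and TEF to MLXIP (0.0637) and EPS15 (0.0733). For scale, the members' own root mean square deviation over the libraries ran from 0.133 (CLOCK) to 1.21 (NR1D1), and no other member was among the nearest 2 genes of any. The measure spans both lines, so it takes in the gap between them (2.48 for NR1D1 and -0.995 for CRY2 in unexposed cells). A shared response to the field was not tested by it.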

How the data were processed

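RNA of 12 libraries had been sequenced, and the table gives the FPKM value of each gene in each library, deposited by the authors. The submitters' processing notes name fastp, HISAT2, HTSeq and the genome build GRCh38, with versions, strand setting and annotation release not given in the sources used here. Whole counts were recovered from the FPKM values (within 0.01 of a count for 100% of genes) and served for depth and for 1 alternative. Genes with at least 0.5 FPKM in at least 3 libraries were kept (13811, with 12537 removed). The log2(FPKM + 1) values were fitted with limma 3.58.1 in R 4.3.3 with an intensity trend, as 4 group means with 8 residual degrees of freedom, and p-values, two-sided, were Benjamini-Hochberg adjusted over the kept genes, and 0.05 was the threshold. The fit was tested on simulated data.

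Every member was named, with the 3 genes of smallest adjusted p per line in each of 6 related lists and the 2 genes most like each member. The members and lists were chosen with earlier results of these data known. Promoters and gene positions are from RefSeq, GRCh38.p14 (25419 of 26348 gene IDs matched). Tables used Python 3.11.15, pandas 2.3.3 and numpy 2.4.6, and figures matplotlib 3.10.9. Alternatives were 11 other settings, 12 fits each without 1 library and 1 fit added after seeing the data. Proteins were not analysed here. The values of 1 gene of the related lists are not reported here.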

Additional observations from a re-analysis of the deposited data

Results flagged for a closer look

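Of the 10 clock genes, 6 responded differently in the lines by the limma interaction term (response in A549 minus response in 293T, log2 scale, 3 libraries per group). The differences were -0.295 for CRY2, -0.391 for PER2, -0.352 for PER3, -0.471 for NR1D2, -0.432 for DBP and -0.393 for TEF. The calls of CRY2, PER3 and DBP were lost without single libraries, as given above with their values.

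Among the genes named from the related lists, 8 had a lower response in A549 than in 293T, namely HLF (-0.296), NFIL3 (-0.481), CSNK1D (-0.217), E2F8 (-0.306), CDKN1A (-0.647), WEE1 (-0.328), FAM53C (-0.243) and TSC22D3 (-0.308). A higher response in A549 was found for BHLHE40 (0.449), BMP4 (0.736), ERRFI1 (0.669) and CEBPD (0.954). Over all genes tested, 7.03% had a lower and 5.51% a higher response in A549. The list genes were named by the smallest adjusted p in either line, so their counts cannot be compared with that share. The NFIL3 difference was not called with no filter (limma adjusted p = 0.0504) or without both exposed libraries numbered 3 (0.0556). For USP2 the difference was 0.296 on the log2(FPKM + 1) scale, but 0.0102 with a pseudocount of 0.1 (limma adjusted p = 0.979) and -0.634 with limma-voom (adjusted p = 0.422), so it has no settled direction. USP2 was at 0.0447 ± 0.0152 FPKM in exposed and 0.0982 ± 0.0242 FPKM in control A549 cells (SD, n = 3 each), near 0 in that line. HLF was no longer called without replicate 1 of exposed A549 (adjusted p = 0.0596), replicate 1 of exposed 293T (0.0549), replicate 1 of the A549 controls (0.0575) or replicate 2 of the 293T controls (0.0593). WEE1 was close to the threshold (limma adjusted p = 0.0494) and was not called in 10 of 12 fits lacking a library (where its adjusted p ran between 0.0534 and 0.110).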

How the results depend on the processing

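Over all alternatives, none of the 30 member results on the field (10 genes, with the response in each line and the difference) changed sign, and 21 never changed their call. Members higher in A549 were 1 in place of 0 with median centring and without both exposed libraries numbered 3. Members lower in 293T were 0 in place of 1 (PER1) without those libraries, with each line alone, median centring, no filter, a pseudocount of 0.1 or quantile normalization, and 2 with the replicate block. The clock factors list had 5 calls in 293T in place of 3 with TPM, a pseudocount of 0.1, quantile normalization and without both exposed libraries numbered 3. NR1D2 between the unexposed lines was -0.0744 with TPM (adjusted p = 0.433) in place of 0.0498, and ran from -0.0374 (without replicate 1 of the A549 controls) to 0.0978 when 1 library was left out. The difference for USP2 turned to -0.634 when limma-voom was run on the recovered counts, with an adjusted p of 0.422. The causes were not tested.

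Leaving out 1 library at a time gave 5 to 7 members changed in A549 (0 to 1 higher, 5 to 7 lower), 2 to 5 in 293T (2 to 3 higher, 0 to 2 lower), 4 to 6 with a different response and 8 between the unexposed lines. The 293T calls ran from 3 to 5 for clock factors, 5 to 10 for turnover genes and 0 to 3 for iron-sulfur genes. Genes lower in the difference numbered 637 to 1030 of those tested, with 971 in all libraries.

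The labels do not say whether equally numbered libraries were handled together, and their values showed no sign of pairing. A small shared effect could be missed by this check. Deviations of equally numbered libraries correlated at -0.141, -0.0737 and -0.0431 in A549 and -0.0735, 0.000139 and -0.0950 in 293T, and no library correlated best with its own number. With the replicate number as a block, 6 members were changed in A549 and 5 in 293T, where NR1D1 was added (-0.14, adjusted p = 0.0347). Counting error of 6.74% at the lowest member count limits what can be seen for PER3 in 293T.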
